A study of Mus musculus with 2 samples.

Results

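The mouse miRNA genes numbered Mir6896 to Mir7094 were entered into the annotation as a nearly unbroken run, and most of them lie in short stretches of introns of protein-coding genes. They were chosen here by symbol alone: every gene of the deposited tables whose identifier maps to a miRNA gene named Mir followed by a number from 6896 to 7094, with any suffix. That rule found 178 of the 1973 genes in the tables. The annotation used for names (GENCODE release M21) holds 201 genes in this range, and the other 23 are not analysed here. The rule itself uses no measured value.

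A mirtron is a miRNA hairpin made by splicing. The spliced-out intron is debranched and folds into a precursor that Dicer can cut, without the cut by Drosha that frees most miRNA hairpins. In a tailed mirtron, 1 end of the hairpin is the splice site and the other end lies inside the intron, so that the extra stretch must be trimmed away. Mirtron-derived miRNAs of mammals are known for low levels in most tissues.

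The samples were 2 microRNA-seq libraries of mouse liver at embryonic day 15.5, when the liver is also a blood-forming organ. Both came from total RNA of healthy embryos of strain B6NCrl, with males and females pooled; replicate 1 was a pool of 78 embryos and replicate 2 a pool of 62. The size range in the labels is under 30 nucleotides (nt). There is 1 group, fetal liver, so no conditions can be compared, and a pool hides the differences between its embryos.

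Same-strand counts of all miRNA genes summed to 5529166 in replicate 1 and 3169882 in replicate 2, so a single count equals 0.181 CPM and 0.315 CPM. CPM is the count divided by the library's same-strand miRNA gene counts, times 1000000. A gene at 0 may still hold up to 3 counts, which is 0.543 CPM for the first library and 0.946 CPM for the second. Of the marker genes of liver cells, Mir122 of hepatocytes stood at 175539 ± 9614 CPM (SD, n = 2), and all 3 erythroid genes, endothelial Mir126a and leukocyte Mir223 had at least 10 counts in both libraries. Mir802, also a hepatocyte gene, had 140 and 6 counts. Markers of other tissues were present as well: of skeletal muscle, Mir206 had 7906 and 8331 counts, Mir133b had 52 and 79, and Mir1a-1 had 1 and 0. The neural gene Mir137 had 368 and 105. The part of such tissues in the values below was not tested. Of the same marker lists, leukocyte Mir142 and neural Mir124-1 and Mir9-1 were not found under these names. In bulk RNA, fewer cells of a type and less RNA per cell cannot be told apart.

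The annotated mature arms of the highest members are shown first, because the splice-site ends and the skewed base content described below can be read from some of them. Others do not show these features, among them both arms of Mir7036b, which touches no intron end. They are the arms of the 10 members with the highest mean CPM, as RefSeq (GRCm38.p6) gives them; Mir6951, Mir6971 and Mir6972 are also among these 10. Each is written 5′ to 3′ with the seed, bases 2 to 8, in capitals.
miR-6944-5p: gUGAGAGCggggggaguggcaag
miR-6944-3p: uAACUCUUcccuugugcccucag
miR-7036b-5p: aCGCGGGGuucucuguggaagc
miR-7036b-3p: uUCCUGGUgggccucggggucc
miR-6936-5p: gUGAGCCAcugccgugcccgc
miR-6936-3p: cGGCGCGCgcggucgcucacc
miR-6897-5p: uGGGGGCAgugucacacgcuguu
miR-6897-3p: cGGUCUGUguucuucccccag
miR-7069-5p: uUGGGGGCcugggagggugacac
miR-7069-3p: cCUGCCCUgccaaccccuaca
miR-7026-5p: uUCUGAGAccaugggguauau
miR-7026-3p: uGUGCUUUcuggucuuggcuuag
miR-6960-5p: cAGGAUGAgaagaguuuggcug
miR-6960-3p: aGCCAACCaccucucuccucag

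Whole hairpins show the 3 ways in which these genes meet an intron end. In the lines that follow, capitals mark a splice-site dinucleotide, GU at the first bases of the intron and AG at the last. The Mir6944 hairpin (chr13:55477681-55477776, minus strand) is a complete intron of Dbn1, Mir6936 (chr11:120624823-120624876, minus strand) starts an intron of Sirt7, and Mir6897 (chr1:36144252-36144313, minus strand) ends an intron of Uggt1.
Mir6944: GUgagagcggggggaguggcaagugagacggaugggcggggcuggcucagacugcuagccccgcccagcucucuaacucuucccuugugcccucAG
Mir6936: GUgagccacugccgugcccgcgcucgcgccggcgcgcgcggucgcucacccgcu
Mir6897: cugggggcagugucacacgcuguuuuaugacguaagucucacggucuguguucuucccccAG

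The 178 genes were seen often but at very low counts. At least 1 same-strand count was found for 92 of them in replicate 1 and for 82 in replicate 2. In either library this came to 109 genes (61.2%), against 35.1% of all 1973 genes. In both libraries it came to 65 genes (36.5%), against 28.2% of all genes. The shared 65 made up 70.7% of those seen in replicate 1 and 79.3% of those seen in replicate 2. The 27 genes seen only in replicate 1 had at most 14 counts, and the 17 seen only in replicate 2 had at most 4. The remaining 69 were at 0 in both.

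Only 4 genes (2.25%) reached at least 10 counts in both libraries, the level called detected here: Mir6944, Mir7036b, Mir6936 and Mir6951. The same level was reached by 17.8% of all genes. Replicate 1 alone had 14 genes with at least 10 counts and replicate 2 alone had 5. The highest count of any of the 178 genes was 27 in replicate 1 and 17 in replicate 2. In replicate 1, 86 genes were at 0, 17 had 1 count, 30 had 2 to 4 and 31 had 5 to 9. In replicate 2 these numbers were 96, 26, 36 and 15. All 178 together held 542 and 288 counts, a share of 0.00980% in replicate 1 (exact Clopper-Pearson 95% interval 0.00899% to 0.0107%) and 0.00909% in replicate 2 (0.00807% to 0.0102%). The mean share was 0.00944% ± 0.00051 (SD, n = 2). The difference between these shares lay within their counting intervals.

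**Figure D1:**
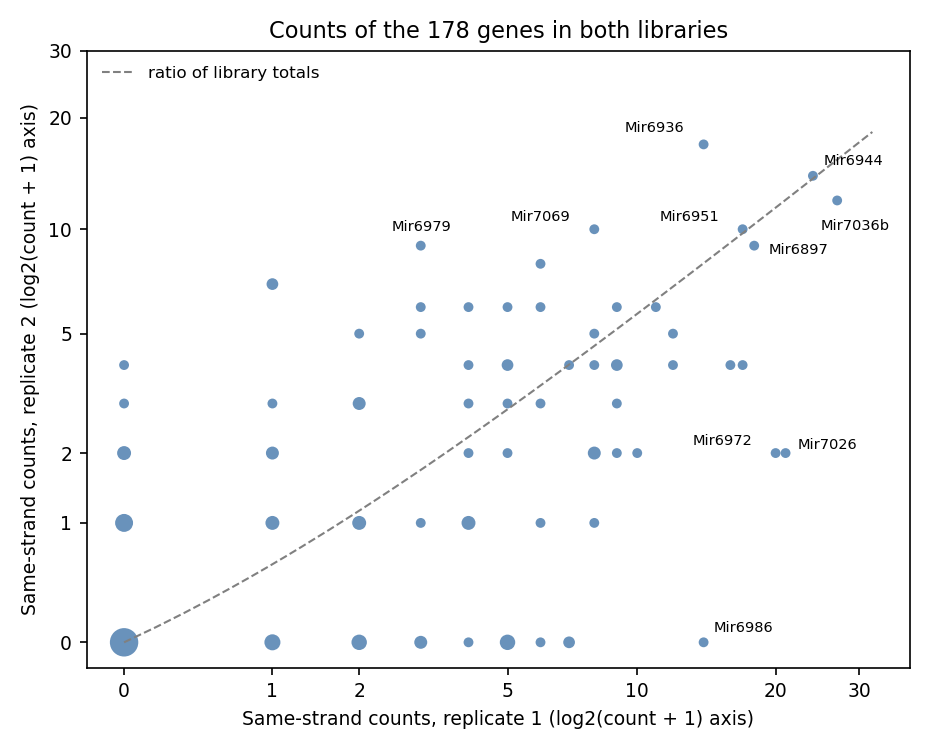
Same-strand counts of the 178 genes in replicate 1 (x axis) and replicate 2 (y axis), both on a log2(count + 1) scale; a larger point stands for more genes at the same pair of counts, and the dashed line is the ratio of the library totals. Most genes sit at or near 0 in both libraries, only 4 have at least 10 counts in both, and Mir7026, Mir6972 and Mir6986 lie far below the line.

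Mir6944, the highest by mean CPM, had 24 and 14 counts, or 4.34 and 4.42 CPM. Its hairpin is the complete 96-nt intron of Dbn1, the gene of the actin-binding protein drebrin. Mir7036b had 27 and 12 counts, with a mean of 4.33 ± 0.78 CPM (SD, n = 2). It lies at chr5:34574151-34574213 on the plus strand, 237 nt into a 24255-nt intron of Add1, which encodes the membrane-skeleton protein adducin, and it also overlaps an exon of another transcript. It was thus the only one of the 4 that touches no intron end.

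Mir6936 had 14 and 17 counts and was the only one of the 4 with more counts in the shallower library, at 2.53 and 5.36 CPM. Its 54-nt hairpin starts with the first base of a 66-nt intron of Sirt7, a nuclear deacylase gene, stops 12 nt before that intron's end and has a GC content of 81.5%. It also overlaps an exon of another transcript. Mir6951 had 17 and 10 counts, or 3.07 and 3.15 CPM. It closes a 1003-nt intron of Azin1, which encodes antizyme inhibitor, at chr15:38490473-38490547 on the minus strand.

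The genes nearest to the detection level show how little separates the 4 from the next. Mir6951 passed with 17 and 10 counts. Mir6897, at the end of a 1780-nt intron of the protein-folding gene Uggt1, missed it with 18 and 9. Mir7069, at the end of a 90-nt intron of Farsa, a phenylalanyl-tRNA synthetase gene (chr8:84867947-84868008, plus strand), missed it with 8 and 10.

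The other 4 of the 10 highest were uneven between the libraries. Mir7026 in Ep400, a chromatin-remodelling gene, had 21 and 2 counts (chr5:110666075-110666141, minus strand). Mir6971 in Skiv2l, an RNA helicase gene, had 17 and 4 (chr17:34841809-34841871, minus strand). Mir6972 in Cfb, the gene of complement factor B, had 20 and 2 (chr17:34857569-34857632, minus strand). Mir6960 in Troap, a gene of a trophinin-associated protein, had 16 and 4 (chr15:99080805-99080865, plus strand). All 4 were higher in replicate 1 by more than its greater depth, which is 1.74 times that of replicate 2. For Mir6971 and Mir6960 the difference did not pass the test between the libraries given below, so it was not beyond counting error.

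The 10 highest members ranked between 334 and 391 of 1973 genes by mean CPM and held 33.6% of the members' counts in replicate 1 and 29.2% in replicate 2. Divided by hairpin length, the order of levels changed: Mir6936 led with 7.31 CPM per 100 nt, ahead of Mir7036b at 6.88, Mir6897 at 4.92, Mir6944 at 4.56 and Mir6951 at 4.15. The size range of under 30 nt is shorter than any of these hairpins, so counts need not grow with hairpin length. The divided values are a description and no correction of the levels. Levels of Mir6944, Mir7036b and Mir6936 differ by less than the SD of 2.00 CPM of Mir6936 (n = 2), so these 3 cannot be put in order. Across all 178 genes the CPM values of the libraries had a Spearman rho of 0.62, given as a description, since genes with counts this low share the same depth.

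Set beside the other 1795 genes of the tables, the range held more genes with a trace of signal and fewer with a high one. Of the others, 584 (32.5%) had at least 1 count in either library, 492 (27.4%) had it in both, and 348 (19.4%) were detected. Among genes with any count, the median of both libraries summed was 5 for the range and 78.5 for the others. Among the 39 of these others that are mirtrons or tailed mirtrons by position alone, it was 11. A low median was thus not particular to the range. A summed count of at least 5 was reached by 62 of the 178 (34.8%) and by 26.6% of the other 1795 genes. At 10 the order was reversed, with 31 genes (17.4%) against 23.7%. At 20 the range held 9 genes (5.06%) against 20.8%, at 30 it held 3 (1.69%) against 19.3%, and at 40 it held 0 against 18.3%. These shares are counts of genes in the same 2 libraries and were not tested.

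**Figure D2:**
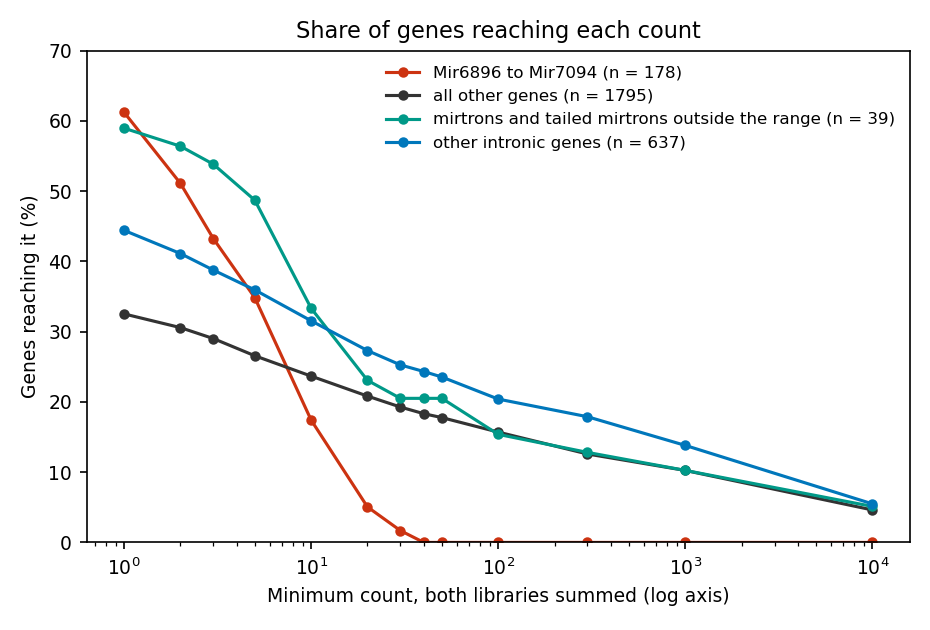
Share of genes (y axis, percent) whose counts, summed over both libraries, reach the minimum on the x axis (log axis). Curves are for the 178 genes, all other genes, mirtrons and tailed mirtrons (by position alone) outside the number range, and other intronic genes. The curve of the 178 genes starts highest at 61.2% and is at 0 from 40 counts on, while that of all other genes falls slowly from 32.5%.

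Fewer members were seen in replicate 1 when it was cut to the depth of replicate 2. In a single random draw of 3169882 counts, the total of replicate 2, its members with at least 1 count fell from 92 to 78 (51.7% to 43.8%). That is close to the 82 (46.1%) in replicate 2. The other genes went from 553 to 526 (30.8% to 29.3%), against 523 (29.1%) in replicate 2. At either depth the share with a count was higher in the range than among the other genes. A gene at 0 was not detectable at this depth, which does not show that it is silent.

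The position of the hairpins was the most uniform feature of the range. All 178 genes lie inside a host gene on the same strand, in 174 different hosts, of which all but the host of 1 member are protein coding, and 0 lie only on the strand opposite a host. The last base of the hairpin was exactly the last base of an intron in 165 genes, against 21 of the 1795 others. The first base of the hairpin was exactly the first base of an intron in 18, and both ends matched in 14. With a tolerance of 5 nt, 15 genes were mirtrons in the strict sense, filling a whole intron. Another 155 were tailed mirtrons by position: 151 with the 3′ end at the intron end and 4 with the 5′ end at the intron start. Of the remaining 8, Mir7036b lies inside an intron and 7 overlap an exon and fit in no intron. By position the range is therefore mainly one of tailed mirtrons, with whole-intron mirtrons a small part.

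**Figure D3:**
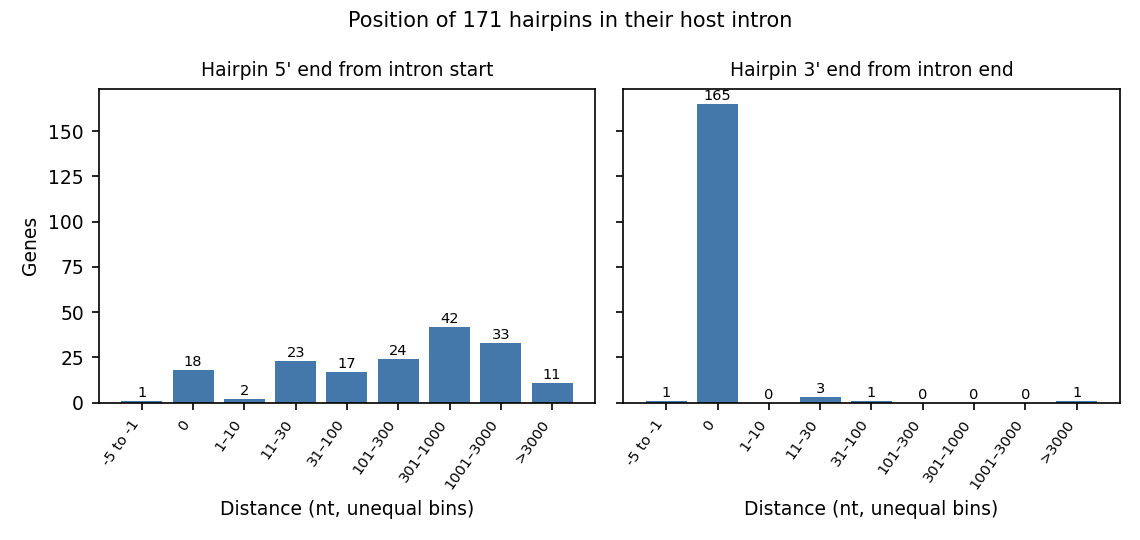
Distance in nt (unequal bins) from the hairpin's 5′ end to the start of its host intron (left) and from its 3′ end to the end of that intron (right), for the 171 genes with a host intron; bars count genes. The right panel has 165 genes at a distance of 0, and the left panel is spread over all bins with 18 at 0.

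In the 151 tailed members that close an intron, the stretch between the intron start and the hairpin had a median of 421 nt and ran from 7 to 36205 nt. It was at most 30 nt in 25 of them. Host introns had a median length of 412 nt (66 to 36269 nt, n = 171), against 15083 nt for introns that hold other miRNA genes. The hairpins were short as well, with a median of 66 nt (52 to 137 nt) against 94 nt for the other genes. In the 39 genes outside the range that are mirtrons or tailed mirtrons by position, the medians were 247 nt for introns and 67 nt for hairpins. Short introns and short hairpins were thus not particular to the range.

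Counts were found in every positional class. Of the 15 whole-intron mirtrons, 11 had a count, with 61 counts in replicate 1 and 38 in replicate 2. Mir6944 alone gave 24 and 14 of these. The next were Mir7088 in Mst1, which encodes a hepatocyte growth factor-like protein, with 8 and 5 counts, and Mir6958 in Dennd6b with 10 and 2. Of the 151 that close an intron, 92 had a count, and they held 433 and 216 counts, or 79.9% and 75.0% of all counts of the range. Among the 4 that open an intron, Mir6936 had 14 and 17, Mir6977 in the phosphatase gene Ptprs had 0 and 1, and Mir6973b and Mir6927 were at 0 in both. Of the 7 exonic genes, 3 had a count, with 7 and 4 in all.

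Counts were found at every span of intron length. Of 42 genes in introns of at most 100 nt, 29 had a count (69.0%), with 153 and 88 counts in all. In introns of over 100 to 300 nt it was 21 of 33 (63.6%), with 90 and 41 counts. In introns of over 300 to 1000 nt it was 30 of 47 (63.8%), with 120 and 74 counts, and in longer introns 26 of 49 (53.1%), with 172 and 81 counts. The share of genes with a count was thus lowest in the longest introns, but these held the most counts in replicate 1. The longest intron, 36269 nt in the transcription factor gene Klf7, carries Mir6899, which was at 0 in both libraries.

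Across members, Spearman's rho with the mean CPM was -0.041 for intron length (n = 171), 0.045 for hairpin length (n = 178) and 0.16 for the hairpin's GC content (n = 161). These are descriptions over genes that share both libraries and have low counts. Hairpins of at most the median length of 66 nt had a count in 51 of 91 genes, and longer ones in 58 of 87. Hairpins up to the median GC content of 57.7% had a count in 42 of 81 genes, with 174 and 74 counts, and those above it in 55 of 80, with 270 and 167 counts. The median GC content of other miRNA hairpins was 50.6% (n = 708). It was 56.25% (n = 35) in those outside the range that are mirtrons or tailed mirtrons by position.

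**Figure D4:**
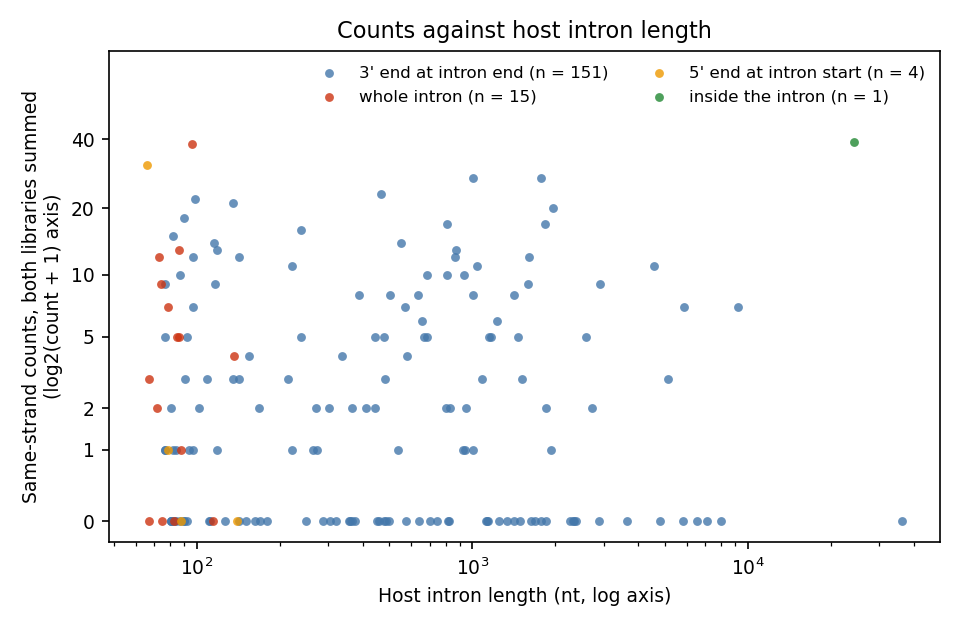
Same-strand counts summed over both libraries (y axis, log2(count + 1) scale) against host intron length in nt (x axis, log axis), 1 point for each of 171 genes, coloured by position in the intron. Genes with counts and genes at 0 lie along the whole range of lengths, with Mir6944 highest among short introns and Mir7036b alone at 24255 nt.

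A read from a retained or alternative exon would be counted like a read from the hairpin. Of the 178 genes, 39 also overlap an exon of some transcript, and 23 of these had a count (131 and 65 counts in all). Of the 139 with no exon overlap, 86 had a count (411 and 223). The tables count precursors, so reads of the mature arms and other fragments of the intron under 30 nt cannot be told apart.

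Host genes with more than 1 member gave uneven pairs. In Skiv2l, the whole-intron mirtron Mir6970 had 2 and 1 counts while Mir6971, at the end of a 135-nt intron, had 17 and 4. In Srebf1, a regulator of lipid synthesis, Mir6921 had 7 and 0 and Mir6922 was at 0 in both. In Cmip, Mir7077 had 2 and 0 and Mir7078 was at 0. In Arap3, Mir6980 and Mir6981 were both at 0. Host transcripts were not measured here.

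The sequences carry the marks of the splice sites. RefSeq held an entry for 163 of the 178 genes, with 161 hairpins at the annotated positions and 312 mature arms. Read on the RNA strand only, the last 2 hairpin bases were AG in 149 of 161 (92.5%), against 62 of 708 hairpins of other genes (8.76%). The last 3 bases were CAG in 132 and UAG in 15. The first 2 bases were GU in 27 (16.8%), against 48 of 708 (6.78%), and in 10 of 12 whole-intron mirtrons of the range. Among mirtrons and tailed mirtrons by position outside the range, 17 of 35 hairpins ended in AG (48.6%) and 7 of 35 began with GU. The AG share was thus still higher in the range, but the GU share was not. These groups were not matched in exact position, however. The last base of the hairpin was exactly the last base of an intron in 21 of those 39 genes, against 165 of the 178. The higher AG share is therefore not shown to be particular to the range. These ends follow from where the hairpins lie and say nothing about processing.

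The arms differed in base content. The 155 annotated 3p arms were 71.7% C or U and 16.0% G, while the 157 5p arms were 45.4% G and 32.2% C or U. In miRNA genes outside the range, 3p arms were 53.7% C or U (n = 554) and 5p arms 49.1% (n = 550). Of the 3p arms, 121 (78.1%) ended in AG, against 61 of 554 outside the range, and 115 ended at the very end of the intron. That is the case for miR-6944-3p, miR-6897-3p, miR-7026-3p and miR-6960-3p above, but not for miR-7069-3p. Of the 5p arms, 15 began with the first base of an intron, and 10 of these began with GUGAG, the common start of a mammalian intron, as in miR-6944-5p and miR-6936-5p. That start was found in 4 of 550 5p arms outside the range. Arms of the mirtrons and tailed mirtrons outside the range were not taken separately. Whether these arm traits are particular to the range was therefore not tested.

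**Figure D5:**
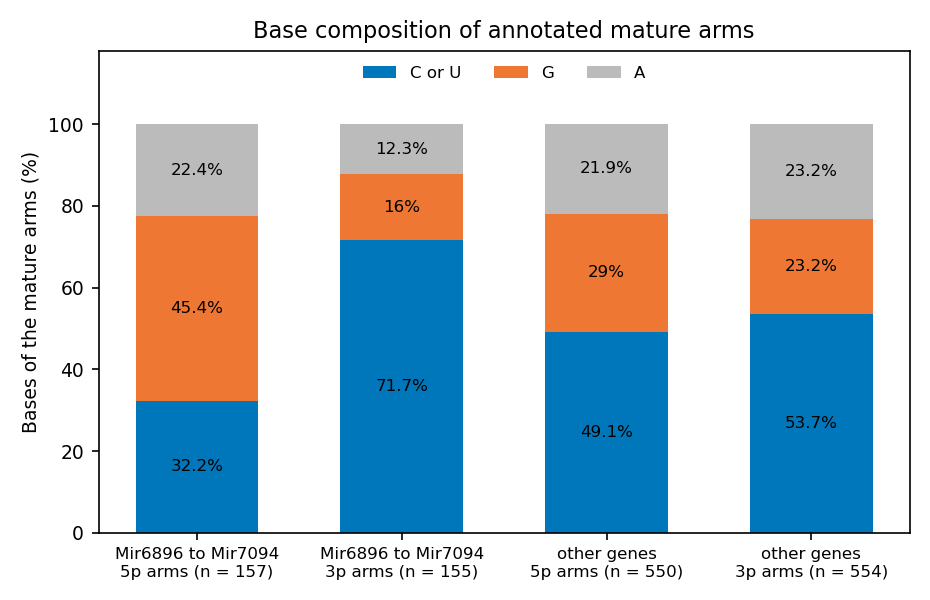
Base composition of annotated mature arms (y axis, percent of bases) for the 5p and 3p arms of the 178 genes and of miRNA genes outside the number range; each bar is split into C or U, G, and A. The 3p arms of the range are 71.7% C or U and its 5p arms 45.4% G, while both arms of the other genes lie between.

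Seeds, the bases that pair with targets, were mostly unshared. The 312 arms had 287 different seeds, of which 21 were found in at least 2 members and the largest groups had 3. CACCCUG was the seed of miR-7018-3p, miR-7023-3p and miR-7068-3p, whose genes had 2 and 3, 0 and 1, and 5 and 4 counts. GGGGAGG was that of miR-7030-5p, miR-7075-5p and miR-7076-5p, whose genes had 1 and 0, 6 and 6, and 0 and 0. GGGCUGA was shared by miR-6911-5p, miR-7028-5p and miR-7079-5p, and GUGGGAG by miR-6922-5p, miR-6993-5p and miR-7008-5p. Seeds of 39 kinds also occur in miRNAs outside the range. CUGUUCU, of miR-6932-3p and miR-7039-3p, is also the seed of miR-26b-3p, and CUGCCCU, of miR-7069-3p, is that of miR-18a-3p. Of the range's genes with these last seeds, Mir6932 had 4 and 1 counts, Mir7039 was at 0 in both, and Mir7069, the sixth highest of the range, had 8 and 10.

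Mirtrons outside the number range reached levels that no member did. By the same position rule, 8 genes outside it were whole-intron mirtrons, of which 6 had a count and 3 were detected. Mir1981 in Marc2 led with 1234 and 647 counts (214 ± 13.5 CPM, SD, n = 2). Mir877 in Abcf1 had 240 and 96, and Mir3102 in Arhgef17 had 150 and 74. Mir1982 in the antizyme gene Oaz1 had 15 and 3, which is in the span of the highest members, and Mir1224 in Vwa5b2 was at 0 in both. These 8 genes together took a mean of 0.0279% of counts, more than the 0.00944% of all 178 members.

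The list of known mouse mirtrons (Mir702, Mir877, Mir1224, Mir1981, Mir1982 and Mir5132) had 3 of 6 genes detected. Of these, Mir702 in Plod3 had 68 and 45 counts and Mir5132 in Irak1 had 6 and 3, and both overlap an exon in the annotation used. By position alone, mirtrons and tailed mirtrons outside the range numbered 39, of which 23 had a count (59.0%) and 8 were detected (20.5%). The position rule does not show how a hairpin is processed. Most counts of these 39 genes were those of Mir369 (59479 and 36706) and Mir382 (47248 and 26977). Both lie within 5 nt of intron ends of the imprinted noncoding gene Mirg. Mir668 in the same gene, with 703 and 413, was also detected. Among the 39, the share of genes with a count was close to the 61.2% of the range. The share detected, which takes in these Mirg genes, was not. Of 637 intronic genes that touch no intron end, 283 had a count (44.4%) and 165 were detected (25.9%).

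Nearly all counts of the range were on the strand of the gene. Opposite-strand counts were 1 in replicate 1 and 4 in replicate 2, or 0.599% of 835 counts on both strands, against 8.90% for all other genes. Of the 849542 opposite-strand counts of the other genes, 687959 were in genes on the strand opposite a host and 160381 in genes outside any host. The opposite-strand share within these classes was 65.7% and 7.78%. In the genes placed most like the range the share was lower than in the range. It was 0 of 174235 counts in mirtrons and tailed mirtrons by position outside the range, though most of these counts were of Mir369 and Mir382. The 8 whole-intron mirtrons among them had 0 of 2470, and other intronic genes had 0.0316%. A low share was thus not particular to the range. Mir7071 in Heatr3 had 0 and 2, Mir7093 in Armcx3 had 1 and 1, and Mir6953 in Grina had 0 and 1. No other member had any. A gene on the opposite strand overlaps 11 members, among them Mir7071, which is overlapped by Gm9988.

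Both libraries were set against each other for each gene in an exact two-sided binomial test on TMM-scaled sizes, adjusted by the Benjamini-Hochberg method over the 456 genes with at least 10 summed counts. This compares 2 libraries and no conditions, and counting error is its only source of spread. Of the 31 members tested, 4 were called at 0.05 (12.9%), against 38.6% of all 456 genes. Genes outside the range with at most 40 summed counts were called in 16 of 96 cases. The median log2 ratio of replicate 2 over replicate 1 was -0.30 for the 31 members and -0.02 for all tested genes.

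Lower in replicate 2 were 3 members, against 19.7% of all tested genes in that direction. Mir7026 had 21 and 2 counts, 6.13-fold higher in replicate 1 (95% interval 1.50 to 53.9, exact binomial test, Benjamini-Hochberg adjusted p = 0.0134). Mir6972 had 20 and 2, 5.84-fold higher (1.42 to 51.5, exact binomial adjusted p = 0.0199). Mir6986, which closes a 116-nt intron of the prenyl-protein protease gene Rce1, had 14 and 0 (exact binomial adjusted p = 0.0115). Its ratio was 2.72 with a floor of 3 counts in place of the 0, and the lower limit of its 95% interval was 1.94. Higher in replicate 2 was 1 member, against 18.9% of all tested genes. That was Mir6979 in the formin gene Diaph1, with 3 and 9 counts, 5.14-fold higher (1.28 to 29.5, exact binomial adjusted p = 0.0343). Mir6936, with 14 and 17 counts, did not pass (exact binomial adjusted p = 0.0998). A negative binomial test used a common dispersion, estimated over the 456 genes from these same 2 libraries taken as replicates. The difference under test is thus part of that dispersion, so a lack of calls there does not show that the libraries are alike. It called 0 members and 0.877% of all 456 genes. An unadjusted p under 0.05 was found for 4 members there, and for 5 in the binomial test.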

How the data were processed

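The deposited tables hold unnormalized read counts, whole numbers for each miRNA gene, for both strands, the gene's strand and the opposite strand. Per the text deposited beside them, the assembly was mm10 with annotation M4; the sources used here name no aligner, counter or trimming. Reads mapping to several places (29.3% and 31.1%) were outside the gene counts, which can lower miRNAs with copies; 1 of 312 arms, miR-7094-3p, also occurs in another hairpin. Names, hosts and introns came from GENCODE M21 on the same assembly, which matched 1894 of 1973 identifiers; the 79 unmatched had at most 1 count. All 178 members had the same identifier version.

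CPM was computed over same-strand counts. Values after ± are SDs of 2 libraries, and can fall below counting error. Reads copied by PCR are not separate molecules: intervals and floors take in counting error alone. The labels give the pools as biological replicates, and the spread between them includes library making. edgeR 4.0.16 and DESeq2 1.42.0 (R 4.3.3) gave scaling factors, edgeR the negative binomial test; other steps used Python 3.11.15 and scipy 1.17.1. Log2 ratios add 0.5 counts. The steps were tested on simulated data. Edge tolerance was 5 nt, with 0 and 20 nt as alternatives.

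Named genes were the detected members, the 10 highest by mean CPM, those called between libraries, those with most opposite-strand counts and the list of known mirtrons; others were named after their values were seen. The members and lists were chosen with earlier results of these data known.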

Additional observations from a re-analysis of the deposited data

How the results depend on the processing

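The number of detected members, 4 with at least 10 counts in both libraries, became 65 with at least 1 count, 13 with at least 5 and 0 with at least 50. It ranged from 5 to 14 when a single library was used, and was 3 with replicate 1 thinned and 4 with unstranded counts or versioned identifiers. The share of counts, 0.00944%, ranged from 0.00909% to 0.00980% in single libraries, was 0.00867% with unstranded counts and 0.0115% without the most abundant gene, both through the change of the total. Whole-intron mirtrons numbered 15, 14 within 0 nt and 32 within 20 nt. The 4 calls between libraries became 5 with unstranded counts or with every gene of at least 1 count. They stayed at 4 with total counts or DESeq2 size factors. The negative binomial test left 0, but its dispersion was drawn from the same 2 libraries, so this fall is no separate evidence. With at least 50 summed counts no member was left to test. Under other scalings, 48 values of single genes kept their direction and side of the threshold or moved by less than the spread between libraries. With 1 library left out a mean CPM is the other library's value, a check of little weight with 2 libraries: Mir7026 ranged from 0.631 to 3.80 CPM, Mir6972 from 0.631 to 3.62, Mir6979 from 0.543 to 2.84 and Mir6986 from 0 to 2.53. No paired analysis was possible because there is 1 group. With a highest count of 27, depth limits every level given.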
